A study of Mus musculus with 20 samples.

Results

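The inhibitory receptors of exhausted T cells were followed through 9 transcripts, *Pdcd1* (PD-1), *Ctla4*, *Btla*, *Tigit*, *Lag3*, *Havcr2* (TIM-3), *Cd160*, *Cd244* and *Entpd1* (CD39). The 9 genes were taken by symbol from the 17101 genes of the table, with earlier results of these data known, and all 9 were present in it. T cells that meet antigen for a long time carry several of these receptors at once and respond poorly, a state called exhaustion. PD-1, CTLA-4 and BTLA oppose signals of the T cell receptor and of CD28, TIGIT competes with CD226 for CD155, LAG-3 binds MHC class II, TIM-3 binds galectin-9, and CD160 and CD244 bind HVEM and CD48. CD39 is an enzyme rather than a signaling receptor and degrades extracellular ATP toward adenosine, and in graft-versus-host disease PD-1 and CTLA-4 on donor T cells are known to restrain the response to host antigen.

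RNA-Seq was performed on donor T cells sorted from the spleens of allo-BMT recipients on day +10, in a haploidentical model with B6 donors and F1 recipients. KO donors carried floxed *Dnmt3a* alleles (2loxP) and Cre recombinase driven by the *Cd4* promoter, which is active in developing thymocytes and so acts in both the CD4+ and the CD8+ lineage, and the other donors were WT. There were 20 libraries, 4 for every group, namely WT CD4+, WT CD8+, KO CD4+, KO CD8+ and KO double-positive (DP, CD4+CD8+) cells, with KO animals numbered 1 to 4 and WT animals numbered 2, 3, 5 and 6. Donors were 6 to 12 and recipients 8 to 12 weeks old, every recipient had received an allogeneic graft, and no WT DP library was analysed. Values are normalized counts, that is, reads on a gene divided by the size factor of its library, and p-values measure the spread between numbered animals. Reads on genes per library were 37547651 to 44963524 for WT CD4+, 42563528 to 46771383 for WT CD8+, 39805175 to 46604070 for KO CD4+, 39307777 to 45420708 for KO CD8+ and 41439155 to 46966318 for KO DP cells. At these depths the 9 transcripts had means of 46.1 or more in every group, and counting error made up at most 15.2% of the variance between libraries of a group, except for *Cd244* in WT CD4+ (42.1%) and KO CD4+ cells (34.4%).

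*Dnmt3a*, the targeted gene, had counts of 1658, 1628, 1639.6 and 1385 in the KO CD4+, 2007, 1287, 1515 and 1664 in the KO CD8+ and 1571, 1021, 650.4 and 1332 in the KO DP libraries of animals 1 to 4. WT animals had 4906, 4690.0, 4839 and 5171 in CD4+ and 3549, 3542, 3756 and 3812 in CD8+ cells. All KO libraries thus lay below all WT libraries, and the genotype labels held. The log2 fold change, KO minus WT, was -1.64 (SE 0.08, adjusted p = 1.26e-05) in CD4+ and -1.20 (SE 0.12, adjusted p = 0.000654) in CD8+ cells. The subset labels held as well, since *Cd4* averaged 61586 ± 14351 (SD, n = 4) in KO CD4+ against 361 ± 67.7 in KO CD8+ cells, and *Cd8a* averaged 64360.5 ± 2918 in WT CD8+ against 240.1 ± 233 in WT CD4+ cells. DP cells carried both, with *Cd4* at 12123 ± 2756 and *Cd8a* at 54657 ± 11150.4. The 5 of 6 T cell markers in the table summed to between 126344 and 254692 in every library, with *Thy1* the most abundant.

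Several libraries stood apart from the rest. KO DP animal 3 had reads on 11783 genes, against 13203 to 14677 in the other 19 libraries, and its 100 most abundant genes took 27.9% of the reads, against 18.6% to 22.5% elsewhere. The KO CD4+ library of animal 1 carried more *Cd8a* (3771) and *Cd8b1* (4515) than the other KO CD4+ libraries, which had at most 227 and 788. KO CD8+ libraries had *Cd4* counts of 302, 336, 349 and 458, all above the WT CD8+ counts of 9.89 to 79.6 (log2 fold change 3.88, SE 0.57, adjusted p = 0.00263). In KO CD8+ cells *Cd8b1* was higher than in WT cells (0.38, SE 0.10, adjusted p = 0.0208), and *Runx3* (-0.24, SE 0.07, adjusted p = 0.0284), a factor of the CD8+ lineage, and *Cd3e* (-0.39, SE 0.09, adjusted p = 0.0133) were lower. The comparisons of KO cells were also fitted without KO animal 3. Its CD4+ and CD8+ libraries did not stand apart as its DP library did, with reads on 13613 and 13664 genes. Their 100 most abundant genes took 20.8% and 20.5% of the reads.

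Levels of the receptors were first compared with each other. Per kilobase of exon, the scale on which different genes can be compared, *Pdcd1* had a level of 13583 ± 827 (SD, n = 4) and *Lag3* of 13535 ± 1564 normalized counts in WT CD8+ cells, followed by *Tigit* at 10269.8 ± 689. In WT CD4+ cells *Tigit* (10695 ± 412) and *Pdcd1* (10134 ± 1419.8) had the highest levels per kilobase and did not differ beyond their spread. *Tigit* also ranked first of the 9 per kilobase in KO CD4+ (16181 ± 4474), KO CD8+ (12379.6 ± 2147) and KO DP cells (12074 ± 2990.3), although it did not differ beyond the spread from *Lag3* in KO CD8+ (8248 ± 4622) or from *Pdcd1* (10845 ± 3644) and *Lag3* (9545 ± 3842) in KO DP cells. These ranks rest on exon lengths of curated transcripts, 0.963 kb for *Tigit*, 1.93 kb for *Pdcd1* and 2.003 kb for *Lag3*. By mean counts *Tigit* lay below *Pdcd1* and *Lag3* in KO CD8+ and KO DP cells. *Cd244* ranked last in all 5 groups, from 12.3 ± 2.78 per kilobase in WT CD4+ to 410.3 ± 36.9 in WT CD8+ cells.

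Among the receptors of the CD28 family, *Pdcd1* averaged 26216 ± 1596 (SD, n = 4 in each group) in WT CD8+, 20930.2 ± 7032 in KO DP, 19558 ± 2740.3 in WT CD4+, 16419 ± 6769.5 in KO CD8+ and 13274 ± 7348 in KO CD4+ cells. No neighbors in that order differed by more than the larger of their SDs. *Ctla4*, which takes CD80 and CD86 from CD28, followed the CD4+ lineage, with 7660.3 ± 2262 in KO CD4+ and 6806 ± 755 in WT CD4+ cells, then 4012 ± 1087 in KO DP, 3833 ± 257 in WT CD8+ and 3795 ± 928 in KO CD8+ cells. The only step beyond the spread was that from WT CD4+ to KO DP cells, whose libraries did not overlap. *Btla*, a receptor for HVEM, was likewise a CD4+ transcript, at 6412 ± 739 in WT CD4+ and 5689 ± 1368 in KO CD4+ cells against 2340.2 ± 124 in WT CD8+, 2148 ± 590.4 in KO DP and 2060.2 ± 605 in KO CD8+ cells. Its step from KO CD4+ to WT CD8+ cells exceeded the spread without overlap, and its other steps did not.

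*Tigit* had the smallest ratio of the highest to the lowest group mean among the 9, with 15582 ± 4309 (SD, n = 4 in each group) in CD4+, 11922 ± 2067 in CD8+ and 11628 ± 2879.7 in DP cells of KO donors and 10299.7 ± 397 in CD4+ and 9889.8 ± 664 in CD8+ cells of WT donors. None of its neighbors differed beyond their spread. *Lag3*, which resembles CD4 and binds MHC class II, had 27111 ± 3134 in WT CD8+, 19118 ± 7696 in KO DP, 16521 ± 9259 in KO CD8+, 9532 ± 1654 in WT CD4+ and 8613 ± 5783 in KO CD4+ cells. Its step from WT CD8+ to KO DP cells exceeded the larger SD, although the libraries overlapped. *Havcr2* had the same order, at 12499 ± 809.5, 9023 ± 1475, 8729.7 ± 3332, 3683 ± 622 and 3618 ± 1233, and its steps from WT CD8+ to KO DP and from KO CD8+ to WT CD4+ cells exceeded the spread without overlap.

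The remaining 3 had their highest means in WT CD8+ and KO DP cells. *Cd160* averaged 6753 ± 545 (SD, n = 4 in each group) in WT CD8+, 6674 ± 4300.4 in KO DP, 4313 ± 1880.3 in KO CD8+, 2108 ± 314 in WT CD4+ and 1868 ± 696 in KO CD4+ cells, and the step from KO CD8+ to WT CD4+ cells exceeded the spread although the libraries overlapped. *Cd244*, a receptor of the SLAM family shared with natural killer cells, went from 1542 ± 138 in WT CD8+, 1093 ± 413 in KO DP and 1007 ± 447 in KO CD8+ cells down to 71.3 ± 14.4 in KO CD4+ and 46.1 ± 10.5 in WT CD4+ cells. All of its steps but that from KO DP to KO CD8+ cells exceeded the spread, and the libraries were separate only between KO CD8+ and KO CD4+ cells. *Entpd1* differed least between groups among these 3, from 3899 ± 727 in WT CD8+ through 3719 ± 1138 in KO DP, 3225 ± 834 in KO CD8+ and 2597 ± 439 in KO CD4+ to 2335 ± 253 in WT CD4+ cells, and none of its steps exceeded the spread.

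**Figure D1:**
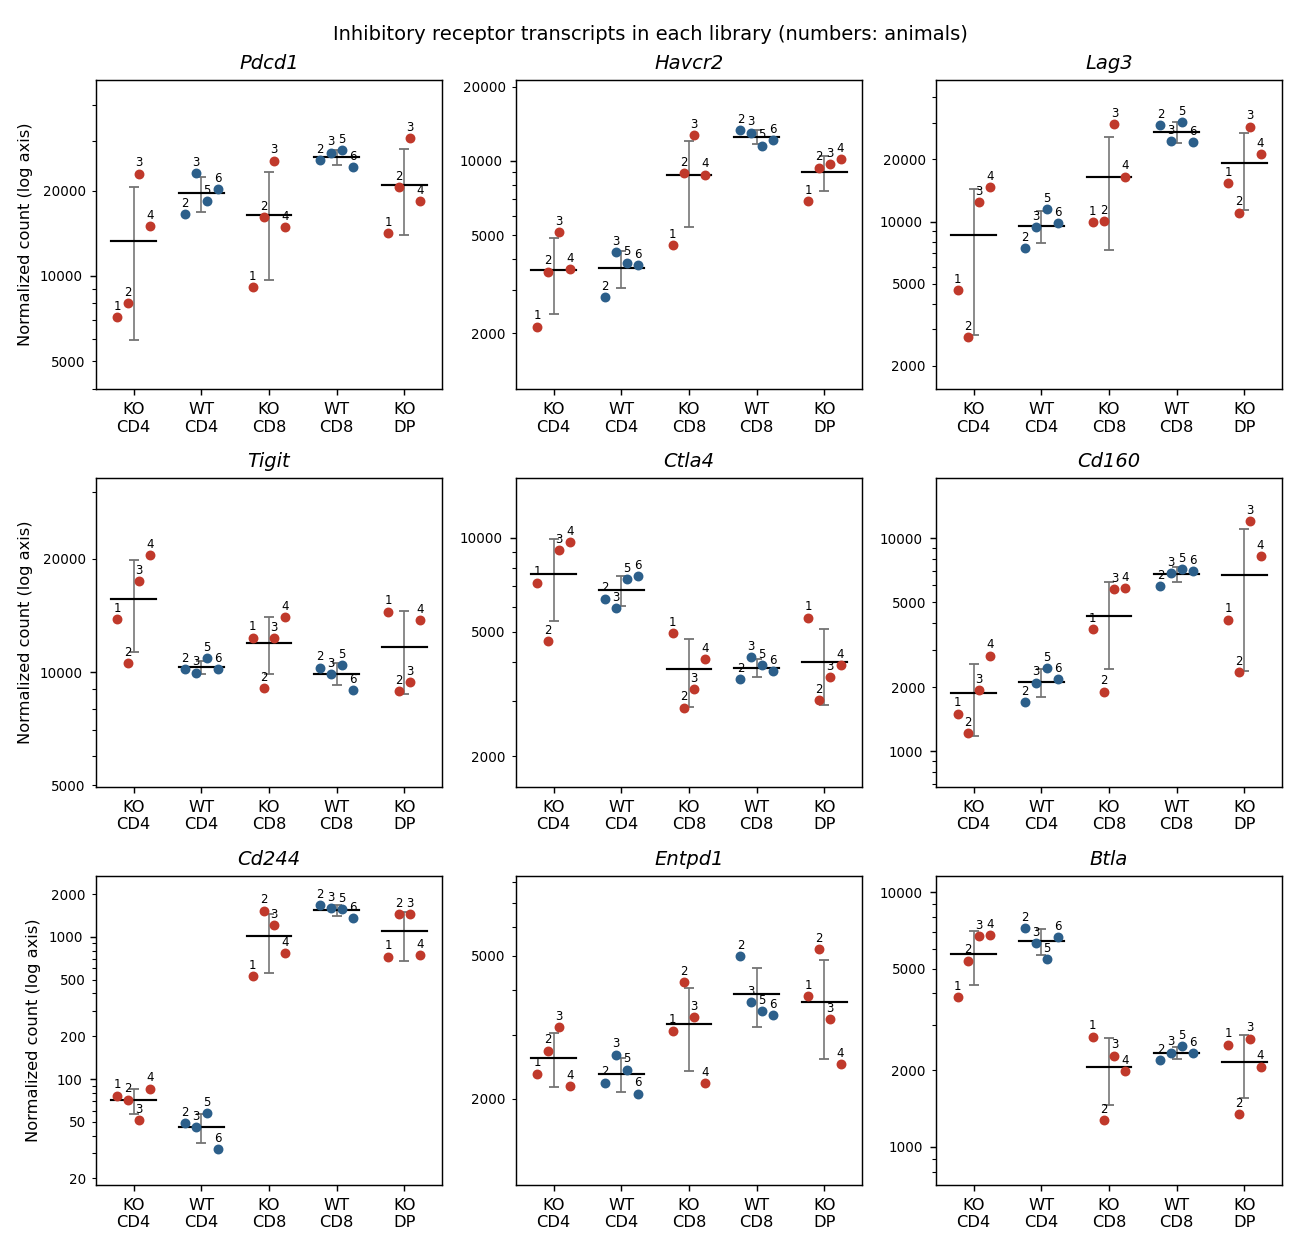
Normalized counts on a log axis (y) of the 9 receptor transcripts in each of the 20 libraries, by group (x), with the animal number beside each point, the group mean as a black line and ± SD as a grey bar. KO libraries (red) spread more widely than WT libraries (blue), as for *Pdcd1* in CD8+ cells, where KO animals ranged from 9156 to 25494 and WT animals from 24223 to 27745.

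KO and WT CD8+ cells were compared to see whether loss of DNMT3a was accompanied by other levels of these receptors. In KO CD8+ cells *Pdcd1* was 1.70-fold lower than in WT cells, and 7 further members had a lower mean log2 value without passing the test. *Pdcd1* counts were 9156, 16120.0, 25494 and 14908 in KO animals 1 to 4 and 25663, 27231, 27745 and 24223 in WT animals 2, 3, 5 and 6. KO animals 1, 2 and 4 lay below every WT animal, while KO animal 3 lay among them. The log2 fold change was -0.77 (SE 0.25, adjusted p = 0.0482), and the 4 KO libraries were all below the WT mean. In bulk RNA, fewer cells that carry a transcript and less of it per cell cannot be told apart. *Pdcd1* was the only 1 of the 9 members past the threshold, an adjusted p under 0.05, where 25.2% of all 12383 genes tested passed it.

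*Lag3* counts in CD8+ cells were 9939.8, 10019.9, 29620.2 and 16503 in KO animals 1 to 4 and 29242, 24548, 30348 and 24306 in WT animals. Those of *Havcr2* were 4539, 8899, 12693 and 8788 in KO and 13308, 13010.5, 11539 and 12139 in WT animals. For both receptors KO animals 1, 2 and 4 lay below every WT animal and KO animal 3 fell within the WT range. *Cd160* counts were 3730.5, 1906, 5769.5 and 5847 in KO and 5956, 6874, 7175 and 7006 in WT animals, and *Cd244* counts were 527, 1531, 1201 and 768 and 1677, 1584, 1558 and 1349. *Cd160* was the only 1 of the 9 whose KO and WT CD8+ libraries did not overlap, where 30.6% of all genes tested had no overlap. The log2 fold changes were -0.86 (SE 0.31, adjusted p = 0.067) for *Lag3*, -0.61 (SE 0.25, adjusted p = 0.106) for *Havcr2*, -0.78 (SE 0.31, adjusted p = 0.0936) for *Cd160* and -0.73 (SE 0.28, adjusted p = 0.0891) for *Cd244*, none past the threshold. *Entpd1* (-0.29, SE 0.19, adjusted p = 0.28), *Btla* (-0.24, SE 0.20, adjusted p = 0.398) and *Ctla4* (-0.04, SE 0.15, adjusted p = 0.857) had smaller values, and *Tigit* had the opposite sign, at 0.25 (SE 0.12, adjusted p = 0.157). The median log2 fold change of the 9 members was -0.61, against -0.04 over all genes tested, of which 54.0% were lower in KO cells.

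The calls of the receptors in CD8+ cells changed with single animals. Without KO animal 3, 4 members were lower in KO than in WT CD8+ cells, where 32.96% of 12415 genes passed, and the log2 fold changes were -1.01 for *Pdcd1* (adjusted p = 0.00384), -1.19 for *Lag3* (adjusted p = 0.00229), -0.82 for *Havcr2* (adjusted p = 0.0206) and -0.96 for *Cd160* (adjusted p = 0.0438). The 3 remaining KO libraries lay below the 4 WT libraries for each of these genes, an order that the counts above had already set. Animal 3 had the highest KO CD8+ count of *Pdcd1*, *Lag3* and *Havcr2*, so leaving it out lowered the KO means of these 3. The median of the 9 members was then -0.82, against -0.05 over all genes. Without KO animal 1 that median was -0.385, with *Pdcd1* at -0.52, *Havcr2* at -0.32, *Cd244* at -0.45 and *Lag3* at -0.67, and without KO animal 2 *Cd160* was at -0.43, so the lower values also rested on animals 1 and 2. Without KO animal 2, 2 other members passed, *Cd244* (log2 fold change -0.97, adjusted p = 0.0242) and *Tigit* (0.38, adjusted p = 0.0130), and *Pdcd1* did not (-0.79, adjusted p = 0.0751), while 22.7% of all genes passed. *Pdcd1* was called without KO animal 1 (adjusted p = 0.0455). It missed the threshold without KO animal 4 (adjusted p = 0.0963) or without WT animal 2, 3, 5 or 6 (adjusted p = 0.0984, 0.111, 0.112 and 0.0918), and no other member passed in these 5 fits. Its log2 fold change hardly moved there, at -0.75, -0.78, -0.75, -0.74 and -0.80 against -0.77 with all libraries, so that the call was lost and not the difference. With all libraries *Pdcd1* passed under 3 of 8 alternatives, over a range of adjusted p from 0.0265 to 0.247. It missed under no filter on low values (adjusted p = 0.0539), edgeR (0.0778), DESeq2 (0.113), a single fit to all 20 libraries, the joint fit (0.110) and the replicate block. That block rests on KO and WT animals 2 and 3, the only numbers found in both genotypes. *Lag3* passed under quantile normalization (adjusted p = 0.0443, range 0.0443 to 0.397), and *Havcr2* (0.0694 to 0.311), *Cd160* (0.0791 to 0.216) and *Cd244* (0.0856 to 0.375) passed under none of these 8.

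In CD4+ cells the genotypes differed in another member. *Tigit* was 1.47-fold higher in KO than in WT CD4+ cells. Its counts were 13805, 10581, 17463 and 20480.0 in KO animals 1 to 4 and 10160.1, 9968, 10876 and 10195 in WT animals 2, 3, 5 and 6. KO animals 1, 3 and 4 lay above every WT animal and KO animal 2 within their range. The log2 fold change was 0.55 (SE 0.17, adjusted p = 0.0458), and *Tigit* was the only 1 of 9 members past the threshold, where 18.4% of all 12391 genes tested passed it. None of the 9 had KO and WT CD4+ libraries without overlap, against 25.6% of all genes tested. The median log2 fold change of the members was -0.08 with 5 of 9 lower, against -0.05 over all genes with 54.9% lower, and with single libraries left out it ran from -0.27 (without KO animal 3) to 0.14 (without KO animal 1).

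*Pdcd1* counts in CD4+ cells were 7158, 8004, 22965 and 14968 in KO animals 1 to 4 and 16559.5, 22984, 18420.2 and 20269 in WT animals, and *Lag3* counts were 4670.0, 2761, 12376 and 14644 and 7452, 9412, 11483 and 9782. The KO animals formed a low and a high pair for *Lag3*, animals 1 and 2 below and animals 3 and 4 above every WT animal. For *Pdcd1*, KO animal 3 lay within the WT range and the other 3 KO animals below it. The log2 fold changes, KO minus WT, were -0.71 (SE 0.31, adjusted p = 0.131) for *Pdcd1* and -0.44 (SE 0.45, adjusted p = 0.5) for *Lag3*. *Cd244*, at 76.5, 71.7, 51.6 and 85.7 in KO and 49.0, 45.9, 57.3 and 32.2 in WT animals, had 0.63 (SE 0.32, adjusted p = 0.178). *Havcr2* (-0.08), *Cd160* (-0.23), *Btla* (-0.20), *Ctla4* (0.12) and *Entpd1* (0.14) had log2 fold changes closer to 0, with adjusted p between 0.407 and 0.826.

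The call of *Tigit* in CD4+ cells was lost in 7 of 8 fits without 1 library, although its value stayed above 0. It was lost without KO animal 1, 3 or 4 (adjusted p = 0.0689, 0.0801 and 0.0770) and without WT animal 2, 3, 5 or 6 (adjusted p = 0.0988, 0.105, 0.0858 and 0.112), and held without KO animal 2 (log2 fold change 0.73, adjusted p = 0.00508). Against 0.55 with all libraries, the log2 fold change was 0.60, 0.49 and 0.41 without KO animals 1, 3 and 4 and 0.54 to 0.58 without each WT animal, so the loss of the call does not show that the value came from these libraries. *Tigit* passed under 4 of 8 alternatives with all libraries (adjusted p from 0.0183 to 0.358). It missed under no filter on low values (0.0518), quantile normalization (0.0906), the joint fit (0.0588) and the replicate block, which rests on KO and WT animals 2 and 3 (0.358). Without KO animal 3, *Pdcd1* was lower in KO CD4+ cells (log2 fold change -1.03, adjusted p = 0.0143, against 0.107 to 0.375 under the alternatives with all libraries), with each of the 3 remaining KO animals below every WT animal. Animal 3 had the highest *Pdcd1* of the KO CD4+ libraries, so leaving it out set this order in advance. *Pdcd1* was then the only 1 of 9 members past the threshold, where 23.8% of 12430 genes passed, and the median of the members was -0.27, against -0.06 over all genes.

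**Figure D2:**
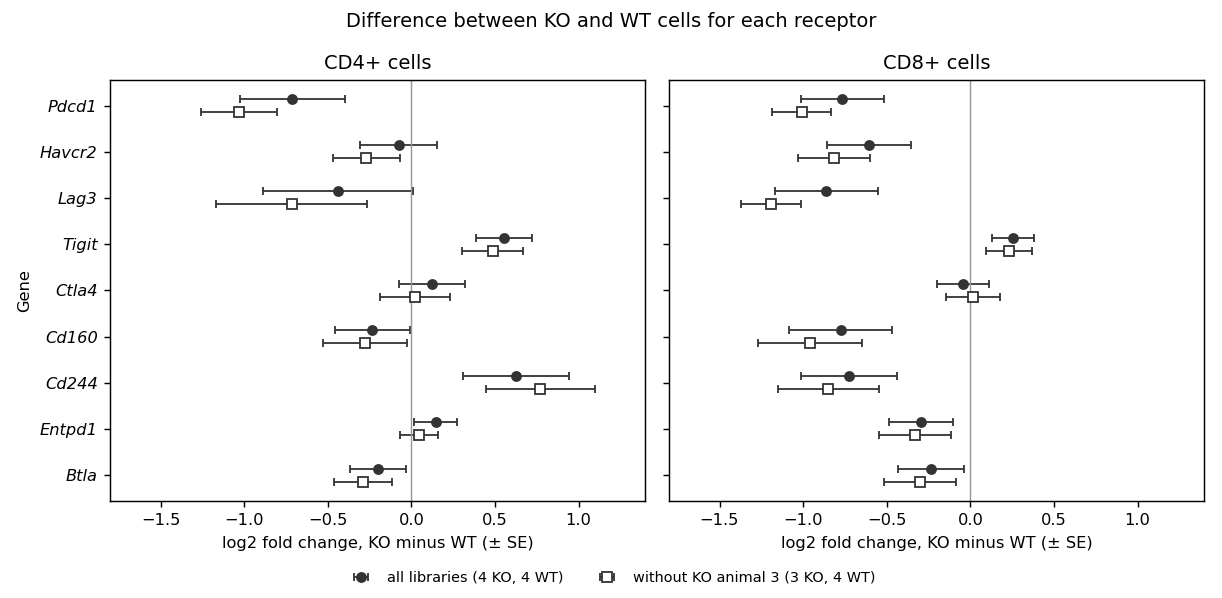
Log2 fold change (x), KO minus WT, of each receptor (y) in CD4+ and CD8+ cells with its standard error, for all libraries (filled circles, 4 KO and 4 WT animals) and without KO animal 3 (open squares, 3 KO and 4 WT animals). In CD8+ cells *Pdcd1* moved from -0.77 to -1.01 and *Lag3* from -0.86 to -1.19 when that animal, the KO animal with the highest CD8+ count of both, was left out.

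A call in only 1 subset does not show that the subsets differ, so the difference between the CD4+ and the CD8+ effect of genotype was tested itself. None of the 9 members passed that interaction test in limma, where 0.0161% of 12446 genes passed and 793 genes had an unadjusted p under 0.05. *Cd244* had the largest value of the 9, 1.35 (SE 0.39, adjusted p = 0.473), CD4+ effect minus CD8+ effect, and was the only 1 of them with an unadjusted p under 0.05. *Pdcd1* had 0.05 (SE 0.45, adjusted p = 1) and *Tigit* 0.30 (SE 0.23, adjusted p = 0.996). All 9 values were above 0 in this fit, but *Btla* was at -0.01 under quantile normalization and *Pdcd1* at -0.02 without KO animal 3, and with single libraries left out *Pdcd1* ran from -0.265 to 0.296 and *Btla* from -0.179 to 0.207. The values had a median of 0.42 against 0.00 over all genes, and the other 6 had adjusted p between 0.898 and 1. edgeR and DESeq2 on whole reads called none of the 9 either. With the animal number as a block, 1.39% of the genes passed but none of the 9, of which *Havcr2* (0.0729) and *Cd244* (0.0943) had the lowest adjusted p.

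The 4 KO animals differed from each other far more than the 4 WT animals. The coefficient of variation was higher in KO than in WT cells for 8 of 9 members in CD4+ and for 9 of 9 in CD8+ cells, the exception being *Cd244* in CD4+ cells. The same held for 81.5% and 90.4% of 10709 genes, so that a higher value in KO cells was common among all genes. Its median over the members was 29.5% in KO CD4+, 38.2% in KO CD8+ and 30.6% in KO DP cells, against 14.0% in WT CD4+ and 6.71% in WT CD8+ cells, and over all of those genes it was 14.9%, 16.1%, 24.0%, 7.92% and 6.03%. The highest KO CD4+ library exceeded the lowest 5.30-fold for *Lag3* and 3.21-fold for *Pdcd1*, and the highest KO DP library exceeded the lowest 5.08-fold for *Cd160*. For 6 of 9 members the same KO animal was lowest in all 3 subsets, animal 1 for *Pdcd1* and *Havcr2*, animal 2 for *Tigit*, *Ctla4* and *Cd160*, and animal 4 for *Entpd1*, as was the case for 33.1% of all genes. *Pdcd1* was the only member with 1 animal, animal 3, highest in all 3 subsets, against 30.9% of all genes.

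Set against the WT range of CD8+ cells, KO animal 1 had 6 members below and 3 above it, animal 2 had 6 below and 3 within, animal 3 had 4 below, 4 within and 1 above, and animal 4 had 7 below, 1 within and 1 above. The median log2 ratio of the 9 members to the WT mean was -0.85, -0.49, -0.04 and -0.51 in these animals. Of 10709 genes, 33.4% to 42.7% lay below and 16.65% to 26.7% within the WT range in the 4 animals, with medians of -0.01 to 0.03, so that libraries outside the WT range were common among all genes. In CD4+ cells animals 1 and 2 each had 5 members below, 2 within and 2 above the WT range, animal 3 had 4 within and 5 above, and animal 4 had 1 below, 3 within and 5 above. Animals 3 and 4 thus had the higher receptor levels in CD4+ cells, with median log2 ratios of 0.39 and 0.43, against -0.48 and -0.24 in animals 1 and 2, while over all genes 30.1% to 41.1% lay below and 33.6% to 37.7% above the WT range, with medians of -0.02 to 0.01.

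Markers of other cells moved with the animals too. Summed normalized counts of the 5 of 6 neutrophil markers in the table, led by *S100a9*, were 55.5, 5.89, 2955 and 391 in KO CD4+, 119.9, 12.35, 2057 and 379.8 in KO CD8+ and 125, 2.94, 5983 and 401 in KO DP cells of animals 1 to 4. WT libraries had 1746 to 2741 in CD4+ and 1469 to 3477 in CD8+ cells. Animal 3 was therefore the KO animal with neutrophil transcripts in or above the WT range and also the 1 whose *Pdcd1* was highest, while animal 2 had 3 or 4 of the 5 markers at 0, *S100a9* among them. The 4 of 5 erythroid markers, led by *Slc4a1*, summed to 123, 28.5, 1158 and 484 in KO CD4+, 110.3, 21.6, 1034 and 343 in KO CD8+ and 91.7, 18.6, 961 and 239.7 in DP cells of the KO animals, and WT libraries had 549.6 to 3394. The 3 platelet markers, led by *Itga2b*, summed to 1.96 to 168 in KO and 81.6 to 219.8 in WT libraries. *Ltf* of the neutrophil list was lower in KO cells of both subsets, as were 3 platelet markers in CD4+ and 2 in CD8+ cells. Without KO animal 3, the fit in which more receptors passed in CD8+ cells, more of these markers passed as well, 4 neutrophil, 3 erythroid and 3 platelet markers lower in KO CD8+ and 5, 3 and 3 lower in KO CD4+ cells. The share of all genes that passed rose too, from 25.2% to 32.96% in CD8+ and from 18.4% to 23.8% in CD4+ cells. The part of neutrophils, erythroid cells and platelets in the receptor values was not tested.

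Some of the receptors are also made by myeloid, B, NK or regulatory T cells, which the sort for T cell subsets separates only as far as those cells lack its markers. The 9 myeloid markers, of which *Cd74* was the most abundant over all libraries, summed to 3084, 2301, 4522 and 3456 in KO CD4+ and 4372, 6681, 7096 and 5441 in KO CD8+ cells of animals 1 to 4, with 4591 to 5609 in KO DP cells, and WT libraries had 7382 to 10003 in CD4+ and 6255 to 9672 in CD8+ cells. Of them 5 were lower in KO CD4+ and 2 in KO CD8+ cells, with *H2-Aa* lower in both. Over all genes, 18.4% were called between genotypes for CD4+ and 25.2% for CD8+ cells. When KO animal 3 was left out, 4 of the 9 were lower in KO CD4+ cells. In that fit 4 were lower and 1 was higher in KO CD8+ cells. The shares over all genes were then 23.8% (CD4+) and 32.96% (CD8+). The 6 B cell markers summed to 647 to 1126 in KO CD4+, 1428 to 2282 in KO CD8+ and 1620.4 to 2250.3 in KO DP cells, and WT CD4+ and CD8+ libraries had only 55.7 to 89.0 and 169.6 to 263. Most of each sum was *Cd79b*, which was higher in KO cells of both subsets, as was *Cd79a* in CD4+ cells (70.3 ± 17.9 against 6.35 ± 4.92, SD, n = 4), and of the 6 markers 2 to 4 were at 0 in every KO and 1 to 3 in every WT library. Of the NK markers, *Klrb1c* was higher in KO cells of both subsets, with ranges in CD4+ cells of 219.9 to 1547 (KO) and 110.7 to 177 (WT) and in CD8+ cells of 672 to 3066 (KO) and 70.1 to 312 (WT), and *Ncr1* was at 0 in all KO and WT CD4+ libraries and in 3 of 4 KO and 1 of 4 WT CD8+ libraries. The 5 of 6 regulatory T cell markers in the table, led by *Nrp1*, summed to 15198, 14304, 20910.4 and 15593 in KO CD4+ cells of animals 1 to 4. KO CD8+ cells of these animals had 8413, 9761.5, 16145 and 10835.5. WT libraries had 19332 to 19977 in CD4+ and 10026 to 12564 in CD8+ cells, and KO DP libraries had 11781 to 11958. By this sum animal 3 lay above the WT range in both subsets, and animals 1, 2 and 4 lay below it in CD4+ cells. The markers did not move alike. *Il2ra* averaged 6077 ± 559 in KO against 5463 ± 688 in WT CD4+ and 4117 ± 1356 against 2438 ± 384 in CD8+ cells (SD, n = 4). The other 4 of the 5 had lower mean log2 values in KO cells of both subsets. Without KO animal 3, 1 of these markers was lower in KO CD4+ and 2 were lower in KO CD8+ cells, while none passed with all libraries. The part of these other cells in the receptor values was not tested.

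WT cells showed how the receptors divide between the lineages. Of the 9 members, 8 differed between WT CD4+ and WT CD8+ cells, 2 higher and 6 lower in CD4+ cells, where 44.5% of 12559 genes passed. The same 8 had libraries without overlap, where 41.8% of the genes had none. *Cd244* was 33.3-fold lower in CD4+ cells, with 49.0, 45.9, 57.3 and 32.2 against 1677, 1584, 1558 and 1349 in CD8+ cells of WT animals 2, 3, 5 and 6, and the difference on the log2 scale was -5.06 (SE 0.17, adjusted p = 1.58e-10). *Havcr2* (-1.78, SE 0.10, adjusted p = 1.87e-08), *Cd160* (-1.69, SE 0.09, adjusted p = 1.58e-08) and *Lag3* (-1.52, SE 0.11, adjusted p = 1.65e-07) were 3.43-fold, 3.22-fold and 2.86-fold lower in CD4+ cells. *Entpd1* (-0.73, SE 0.11, adjusted p = 0.000116) and *Pdcd1* (-0.43, SE 0.08, adjusted p = 0.000913) were lower by less, and *Pdcd1* missed the threshold in the joint fit (adjusted p = 0.456) and in DESeq2 over all libraries (0.444), its adjusted p being 0.00164 or less in the 6 other alternatives. *Btla* (1.45, SE 0.08, adjusted p = 7.81e-09) and *Ctla4* (0.82, SE 0.07, adjusted p = 1.34e-06) were higher in CD4+ cells, with all 4 CD4+ libraries above all 4 CD8+ libraries. *Tigit* was the exception, at 0.06 (SE 0.05, adjusted p = 0.386). The median of the members was -0.73, against -0.01 over all genes.

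The same comparison in KO cells had wider spreads. Of the 9 members, 2 passed between KO CD4+ and KO CD8+ cells, where 4.22% of 12189 genes did, and the same 2 had no overlap, where 10.1% of the genes had none. *Cd244* was lower in CD4+ cells (-3.71, SE 0.34, adjusted p = 0.000646) and *Btla* higher (1.48, SE 0.25, adjusted p = 0.0111). *Ctla4* (0.99, SE 0.24, adjusted p = 0.0513), *Havcr2* (-1.25, SE 0.32, adjusted p = 0.0671), *Cd160* (-1.15, SE 0.37, adjusted p = 0.141), *Lag3* (-1.09, SE 0.54, adjusted p = 0.388), *Pdcd1* (-0.38, SE 0.40, adjusted p = 0.744), *Tigit* (0.36, SE 0.20, adjusted p = 0.483) and *Entpd1* (-0.29, SE 0.19, adjusted p = 0.567) did not pass. Libraries of the same KO animal moved together, and once the animal was entered as a block 7 of 9 members passed, where 18.9% of the genes did. These were *Cd244* (adjusted p = 6.57e-05) and *Btla* (0.00107) together with *Havcr2* (9.73e-06), *Cd160* (0.000363), *Ctla4* (0.00119), *Lag3* (0.00588) and *Tigit* (0.0104), while *Pdcd1* (0.0913) and *Entpd1* (0.0805) missed it. Within each KO animal, *Havcr2*, *Cd160*, *Lag3* and *Cd244* were lower and *Ctla4*, *Btla* and *Tigit* higher in the CD4+ library, without exception.

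Single libraries moved the KO CD4+ to CD8+ comparison. Without KO CD8+ animal 1, *Havcr2* (adjusted p = 0.0184) and *Ctla4* (0.0407) passed as well, without KO CD4+ animal 2 *Ctla4* did (0.0145), and without KO CD8+ animal 2 *Cd160* did (0.0310). Over the alternatives with all libraries the adjusted p ran from 9.73e-06 to 0.0702 for *Havcr2*, 0.000105 to 0.0632 for *Ctla4* and 0.000363 to 0.154 for *Cd160*. Without KO animal 3 in both subsets, *Cd244* passed (adjusted p = 0.0132) and *Btla* did not (log2 fold change 1.46, adjusted p = 0.0757, against 7.21e-09 to 0.0130 under the alternatives with all libraries), so that 1 of 9 members was called where 1.001% of the genes passed.

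KO DP cells were set against their single-positive relatives to see which lineage their receptors followed. Against KO CD8+ cells, none of the 9 members passed in limma, where 0.00823% of 12153 genes did, none had an unadjusted p under 0.05, and 237 of all genes had 1. edgeR and DESeq2 called none of the 9 either. With the animal as a block, *Pdcd1* (log2 fold change 0.39, SE 0.10) and *Cd160* (0.50, SE 0.15) had an unadjusted p under 0.05, as did 1447 of all genes, and both were higher in the DP library in 4 of 4 animals, but none of the 9 passed after correction (lowest adjusted p = 0.405), where again 0.00823% of the genes did. None of the 9 had libraries without overlap, against 2.699% of all genes. The log2 fold changes, DP minus CD8+, ran from -0.05 for *Tigit* to 0.50 for *Cd160* (SE 0.51), with a median of 0.15 against -0.01 over all genes and adjusted p between 0.871 and 0.968. *Pdcd1* counts were 14153, 20509, 30707 and 18352 in the DP cells of animals 1 to 4, each within the spread of the KO CD8+ libraries or, for animal 3, above it.

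Against KO CD4+ cells, DP cells had more *Havcr2* and *Cd244* and less *Btla*. *Cd244* counts were 725, 1451, 1449.7 and 746 in the DP cells of animals 1 to 4, 14.5-fold those of KO CD4+ cells (log2 fold change 3.86, SE 0.32, adjusted p = 0.000471). *Havcr2* counts were 6862, 9394, 9672 and 10164 in DP and 2129, 3556, 5148 and 3637 in CD4+ cells (1.37, SE 0.25, adjusted p = 0.0251), and *Btla* counts were 2519, 1348, 2659 and 2066 and 3879, 5382, 6699 and 6796 (-1.42, SE 0.25, adjusted p = 0.0215). All 4 DP libraries lay beyond all 4 CD4+ libraries for each of these 3 genes. They were the 3 of 9 members past the threshold, where 1.95% of 12175 genes passed, and the only 3 without overlap, where 11.2% of the genes had none. *Cd160* (1.65, SE 0.46, adjusted p = 0.115), *Lag3* (1.37, SE 0.51, adjusted p = 0.24), *Ctla4* (-0.91, SE 0.25, adjusted p = 0.109), *Pdcd1* (0.76, SE 0.37, adjusted p = 0.361), *Entpd1* (0.48, SE 0.22, adjusted p = 0.339) and *Tigit* (-0.41, SE 0.24, adjusted p = 0.423) did not pass, and the median of the 9 was 0.76 against -0.01 over all genes.

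With the animal as a block, 6 of 9 members passed between DP and CD4+ cells, where 7.06% of the genes did. *Lag3* (adjusted p = 0.0174) and *Cd160* (0.0124) joined the receptors that were higher and *Ctla4* (0.0315) joined *Btla* (0.0129) among those that were lower in DP cells, beside *Havcr2* (0.00385) and *Cd244* (0.0025). Without the block, *Havcr2* missed the threshold without KO CD4+ animal 2 or 4 (adjusted p = 0.0629 and 0.0716) or KO DP animal 2 or 4 (0.0708 and 0.0545), with log2 fold changes of 1.31 or more there against 1.37. *Btla* missed it without KO CD4+ animal 2, 3 or 4 (0.0572, 0.0817 and 0.0776), with -1.43, -1.33 and -1.32 against -1.42. *Cd160* passed without KO DP animal 2 (0.0439) and *Ctla4* without KO CD4+ animal 2 (0.0490). Over the alternatives with all libraries the adjusted p ran from 8.81e-06 to 0.0335 for *Havcr2*, 3.44e-08 to 0.0243 for *Btla*, 2.97e-05 to 0.123 for *Cd160* and 0.000418 to 0.126 for *Ctla4*. Without KO animal 3 in both groups, *Cd244* (0.00759) and *Havcr2* (0.0418) passed and *Btla* did not (-1.45, adjusted p = 0.0698), so that 2 of 9 members were called where 0.764% of the genes passed.

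The partners of the receptors were described from lists of related genes, by their KO minus WT calls. Of 16 other inhibitory receptors in the table, of 17 listed, 2 were higher and 2 lower in KO CD4+ cells, and 6 were higher and 3 lower in KO CD8+ cells. For this list and every list below, the share of all genes called was 18.4% in CD4+ and 25.2% in CD8+ cells, with medians of -0.05 and -0.04, and several of the lists had shares near or below these. *Lilrb4a*, an inhibitory receptor of myeloid and activated T cells, fell in both, from 6336 ± 1135 (SD, n = 4) to 3038 ± 448 in CD4+ (log2 fold change -1.05, SE 0.14, adjusted p = 0.00303) and from 4612 ± 417 to 1378 ± 258 in CD8+ cells (-1.76, SE 0.13, adjusted p = 0.000173). *Cd200r1*, the receptor for CD200, fell in CD4+ (-1.25, SE 0.14, adjusted p = 0.00161) and CD8+ cells (-1.87, SE 0.50, adjusted p = 0.0254) and the lectin receptor *Klre1* in CD8+ cells (-1.58, SE 0.37, adjusted p = 0.0149), where *Klre1* had counts of 139.5 ± 72.6 in KO and 374 ± 44.4 in WT cells. *Cd6*, *Cd96*, *Sit1* and *4632428N05Rik*, the older symbol of *Vsir* (VISTA), rose in KO CD8+ cells, with log2 fold changes of 1.05 (SE 0.15, adjusted p = 0.0024), 0.53 (SE 0.12, adjusted p = 0.0118), 0.52 (SE 0.11, adjusted p = 0.0106) and 0.43 (SE 0.10, adjusted p = 0.0125), and *Cd6* rose in CD4+ cells too (0.54, SE 0.13, adjusted p = 0.0234). The adhesion receptor *Pecam1* rose in CD4+ (0.66, SE 0.14, adjusted p = 0.0144) and CD8+ cells (0.61, SE 0.18, adjusted p = 0.0352). In all of these genes the 4 KO libraries lay on 1 side of the 4 WT libraries. The collagen receptor *Lair1* rose in CD8+ cells with overlap of the libraries (1.52, SE 0.41, adjusted p = 0.0247). The median log2 fold change of the list was 0.15 in CD4+ and 0.11 in CD8+ cells.

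Transcripts of ligands of the 9 receptors were measured in the same libraries, without knowledge of which cells made them. Of 14 listed, 11 could be tested in CD4+ cells, with 2 higher and 2 lower in KO cells, and 12 in CD8+ cells, with 2 higher. *Lgals9*, the galectin that binds TIM-3, rose from 4925 ± 574 (SD, n = 4) to 8805 ± 1338 in CD4+ cells (log2 fold change 0.83, SE 0.12, adjusted p = 0.0035) and from 3992 ± 442 to 8840.1 ± 1239.9 in CD8+ cells (1.14, SE 0.11, adjusted p = 0.000638). *Lgals3*, a galectin that binds LAG-3, rose in CD4+ (1.12, SE 0.16, adjusted p = 0.00378) and CD8+ cells (0.82, SE 0.21, adjusted p = 0.021). The 2 ligands that fell in CD4+ cells were *Cd274* (PD-L1), which binds PD-1, from 2552 ± 346 to 1706 ± 329 (-0.59, SE 0.15, adjusted p = 0.0267), and *Tnfrsf14* (HVEM), which binds BTLA and CD160, from 1367 ± 203 to 942 ± 108 (-0.53, SE 0.13, adjusted p = 0.0245), each with all 4 KO below all 4 WT libraries. With single libraries left out *Cd274* ran from -0.66 to -0.44 and *Tnfrsf14* from -0.63 to -0.45, and both calls were lost without WT animal 2, 5 or 6. In CD8+ cells *Cd274* (-0.42, SE 0.18, adjusted p = 0.118) and *Tnfrsf14* (-0.36, SE 0.12, adjusted p = 0.0535) did not pass. Of 11 activating counterparts in the table, of 12 listed, the KO level was lower for 1 in CD4+ and for 3 in CD8+ cells. Without KO animal 3 it was lower for 4 in each subset, where 23.8% (CD4+) and 32.96% (CD8+) of all genes passed. *Cd226*, the activating receptor that shares its ligand with TIGIT, fell in CD4+ cells from 6092 ± 201 to 2939.7 ± 697 (-1.09, SE 0.16, adjusted p = 0.00394) and in CD8+ cells from 10091 ± 678 to 5836 ± 1655 (-0.84, SE 0.19, adjusted p = 0.0127), with all 4 KO below all 4 WT libraries in each subset. The costimulatory receptors *Tnfrsf9* (-0.76, SE 0.19, adjusted p = 0.019) and *Cd27* (-0.39, SE 0.12, adjusted p = 0.0433) fell in CD8+ cells, *Cd27* with overlap of the libraries. *Tigit* and *Cd226* thus had opposite signs in both subsets, although *Tigit* passed the test in CD4+ cells only and the difference between subsets had an adjusted p of 0.996 for *Tigit* and 1 for *Cd226*.

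Of 14 signaling and adenosine partners, 2 were higher among KO CD4+ and 3 among KO CD8+ cells than in WT cells. *Pik3r1*, a regulatory subunit of PI3K, rose in CD4+ (0.60, SE 0.13, adjusted p = 0.0152) and CD8+ cells (0.73, SE 0.13, adjusted p = 0.00614), with 4 of 4 KO libraries above all WT libraries in each, and the adaptor *Grb2* rose by less in CD8+ cells (0.19, SE 0.06, adjusted p = 0.0376). Of 18 transcription factors of exhaustion, 4 were lower in KO CD4+ cells (median log2 fold change -0.27), and 1 was higher and 7 were lower in KO CD8+ cells (median -0.44). *Tox*, the factor that maintains exhausted CD8+ cells, fell in CD8+ cells from 13175 ± 1993 (SD, n = 4) to 6899 ± 1812 (-0.96, SE 0.19, adjusted p = 0.00724). *Eomes* (-1.19, SE 0.17, adjusted p = 0.00248), *Nr4a1* (-1.42, SE 0.28, adjusted p = 0.00726), *Nr4a3* (-1.52, SE 0.37, adjusted p = 0.0172) and *Nfat5* (-1.03, SE 0.13, adjusted p = 0.00143) fell there too, and *Nr4a1* (-0.80, SE 0.23, adjusted p = 0.0399), *Nr4a3* (-1.35, SE 0.28, adjusted p = 0.0131) and *Nfat5* (-1.41, SE 0.16, adjusted p = 0.00121) fell in CD4+ cells, all without overlap of KO and WT libraries. *Nr4a2* fell in CD4+ (-1.93, SE 0.57, adjusted p = 0.041) and CD8+ cells (-2.29, SE 0.55, adjusted p = 0.0163), with overlap in CD4+ cells, and in CD8+ cells *Id3* fell (-1.44, SE 0.35, adjusted p = 0.0177) and *Nfatc2* rose (0.32, SE 0.08, adjusted p = 0.0156). NR4A and NFAT proteins act downstream of the T cell receptor, and EOMES, a T-box factor, missed the threshold in DESeq2 and in the joint fit. Of the 15 partners called in CD4+ and 25 in CD8+ cells, 8 and 14 kept the call with each library left out in turn, and *Cd274*, *Tnfrsf14*, *Lair1*, *Tnfrsf9*, *Cd27*, *Grb2*, *Nr4a2*, *Id3* and *Nfatc2* lost it in at least 1 such fit in every subset where they were called, with the sign kept in all. Of the genes named here as called in CD8+ cells only, *Nfatc2* (interaction -0.30, SE 0.11, adjusted p = 0.648), *Cd96* (-0.40, SE 0.21, adjusted p = 0.879) and *Klre1* (1.29, SE 0.68, adjusted p = 0.89) had the lowest adjusted p for a difference between subsets, up to 1 for *Sit1*, *4632428N05Rik*, *Grb2* and *Eomes*. With the animal as a block the difference passed for 5 of the related genes, where 1.39% of all genes passed, namely *Cd6* (0.0254), *Nr4a1* (0.0299), *Lilrb4a* (0.0254), *Lgals9* (0.0409) and, named after its values were seen, the inhibitory receptor *Cd72* (0.0254).

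Over the 20 libraries and 10709 genes, the transcripts most like each receptor were found by the root mean square difference of log2 values centered per gene. *Pdcd1* was nearest to *Litaf* (0.268), *Ccdc51* (0.284) and *Cst7* (0.290), and *Havcr2* to *Itga3* (0.333), *Gpd2* (0.34) and *Med7* (0.349). *Lag3* had *Ncf1* (0.345), *Tacc2* (0.394) and *Nfil3* (0.394), and *Tigit* had *Fto* (0.154), *Wdr26* (0.162) and *Trim14* (0.174). *Cd160* was the only receptor with another of the 9 among its nearest, *Lag3* (0.419), between *Cd7* (0.378) and *Itga3* (0.420). *Ctla4* was nearest to *Cd84* (0.196), *Syt11* (0.219) and *Fbxl17* (0.220), *Entpd1* to *Ehd4* (0.185), *Ndfip2* (0.213) and *Ctsc* (0.219), and *Btla* to *Tmem154* (0.231), *Slamf6* (0.259) and *Casp4* (0.272). *Cd244*, whose pattern spans the widest range, had no near neighbor, with *Prf1* at 0.648, *Adgrg5* at 0.727 and *Bend4* at 0.750.

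The 9 genes lie on 6 chromosomes of GRCm38.p6 (RefSeq annotation). *Pdcd1* (94038305 to 94052553, minus strand), *Ctla4* (60909025 to 60915832, plus) and *Cd244* (171558718 to 171585316, plus, listed as *Cd244a*) share chromosome 1, and *Tigit* (43626137 to 43665125, minus) and *Btla* (45223705 to 45252895, plus) share chromosome 16. *Cd160* lies on chromosome 3 (96798763 to 96829351, minus), *Lag3* on chromosome 6 (124904359 to 124912434, minus), *Havcr2* on chromosome 11 (46454931 to 46481255, plus) and *Entpd1* on chromosome 19 (40612366 to 40741602, plus).

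DNMT3a methylates cytosine in the dinucleotide CG, and no methylation was measured in these values. The RefSeq promoter windows of 300 bases, 250 before to 50 after the start of a curated transcript, are printed for *Pdcd1* and *Tigit*, the members called between genotypes, and for *Havcr2*, called between subsets, on the strand of the gene with each CG in capitals. They lie at chr1:94052504-94052803 (minus strand, *Pdcd1*), chr16:43664135-43664434 (minus, *Tigit*) and chr11:46454681-46454980 (plus, *Havcr2*) of GRCm38.p6. For *Tigit* the curated transcript starts at 43664184, inside the span given above, which includes a predicted transcript. *Pdcd1* and *Tigit* each hold 5 CG, a number that 62.0% of all 32851 such promoters reach, and *Havcr2* holds 3, which 76.7% reach.
Pdcd1: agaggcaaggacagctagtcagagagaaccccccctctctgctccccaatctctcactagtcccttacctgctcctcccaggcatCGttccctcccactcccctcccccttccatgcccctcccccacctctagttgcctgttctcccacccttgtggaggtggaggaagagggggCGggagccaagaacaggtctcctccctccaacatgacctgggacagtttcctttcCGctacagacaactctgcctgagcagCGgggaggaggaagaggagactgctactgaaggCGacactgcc
Tigit: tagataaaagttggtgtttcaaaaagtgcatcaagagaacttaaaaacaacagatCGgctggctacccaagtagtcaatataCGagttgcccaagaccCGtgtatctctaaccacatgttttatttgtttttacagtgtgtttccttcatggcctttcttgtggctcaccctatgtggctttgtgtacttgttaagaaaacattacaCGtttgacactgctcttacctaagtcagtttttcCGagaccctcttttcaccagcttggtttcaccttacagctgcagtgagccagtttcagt
Havcr2: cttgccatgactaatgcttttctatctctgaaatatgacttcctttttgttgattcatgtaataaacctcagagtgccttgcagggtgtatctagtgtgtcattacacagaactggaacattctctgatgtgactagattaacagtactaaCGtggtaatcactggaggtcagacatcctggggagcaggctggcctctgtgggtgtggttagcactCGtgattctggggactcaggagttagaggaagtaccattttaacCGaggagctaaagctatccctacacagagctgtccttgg

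The table of promoters had no entry for *Lag3*. Among the other windows, *Btla* had 5 CG, *Cd160* 6 in each of its 2 promoters, *Ctla4* 8, *Cd244* 2, and *Entpd1* 23 and 10 in its 2 promoters, and the median of all promoters was 7, with at least 1 CG in 94.6%. The larger *Entpd1* count is reached by 21.5% of the promoters and the *Cd244* count by 85.9%. The letters TGANTCA, searched on both strands as those of AP-1 factors, occurred once in the windows of *Havcr2* and *Cd244* and not in those of the other 6 members with a window, and occur in 7.81% of all promoters. GGAAA, searched on both strands as the core letters of NFAT factors, occurred 2 times in *Pdcd1*, *Tigit*, *Cd244* and the downstream *Entpd1* window, at most 1 time in the others, and in 61.3% of all promoters. A match of letters is a description of the window and not a bound site.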

How the data were processed

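RNA-Seq of sorted splenic donor T cells (20 libraries, 4 per group) was read from the table deposited by the authors, in which the unit is a signal, the count of read pairs on a gene divided by the size factor of its library. The authors had aligned poly(A)-selected strand-specific reads to mm10 with STAR (2.7.2b per the labels), counted pairs on exons and normalized with DESeq2. Whole reads were recovered for 100% of the values (relative tolerance 1e-06), and DESeq2 size factors computed from them matched those of the table within 5.1e-15. No 2 libraries were copies of each other. Depth was 37547651 to 46966318 reads on genes per library, so that counting error was small beside the spread between animals for all members but *Cd244* in CD4+ cells.

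Each comparison was tested with limma 3.58.1 in R 4.3.3 (lmFit, eBayes with trend, 2-sided) on log2(normalized count + 1), the scale of every fold change given, over genes with a mean of at least 10 in the libraries compared, with Benjamini-Hochberg correction over all of them and a threshold of 0.05. The comparisons were KO against WT in CD4+ and in CD8+ cells, their difference (interaction), KO DP against KO CD8+ and KO CD4+ cells, and CD4+ against CD8+ cells in WT and in KO. The test was checked on simulated data for KO against WT CD8+ cells. Both genotypes were given the same spread per gene there, so the check does not cover the wider spread of the KO libraries. Alternatives were a pseudocount of 10, no filter on low values, quantile normalization, a common 75th percentile over genes with reads in any library, edgeR 4.0.16 and DESeq2 1.42.0 on whole reads, a joint fit of the 20 libraries, the animal number as a block, each library left out in turn, and KO animal 3 left out of every KO group. KO libraries with the same number deviated alike from their group means (r over 10709 genes 0.376 to 0.707, different numbers -0.507 to 0.171), as did WT CD4+ and CD8+ libraries (0.224 to 0.311, different numbers -0.182 to 0.0175), so numbers were taken as animals within a genotype. KO and WT donors with the same number are different animals. Only numbers 2 and 3 occur in both genotypes, so the block compares KO with WT cells through animals 2 and 3 alone.

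The 9 members and the lists of related genes and of cell markers were chosen with earlier results of these data known. All members are named, related genes are named only if called between KO and WT cells, apart from *Cd72*, and the 3 nearest patterns were taken among genes with a mean of at least 50. Of the listed genes *Foxp3*, *Sh2d1a*, *Alas2*, *Trac*, *Pvrig*, *Klra8* and *Ly6g* were not analysed here. Positions, exon lengths and promoters came from RefSeq on GRCm38.p6. Tables were made in Python 3.11.15 with pandas 2.3.3 and numpy 2.4.6, and figures with matplotlib 3.10.9.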

Additional observations from a re-analysis of the deposited data

Results flagged for a closer look

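In 6 of 70 groups of 4 libraries, for the members and the genes used to check the labels, 1 library lay far from the other 3 relative to the range of the group, which chance gives in about 1 of 20 groups. None of the 6 was a group of a receptor transcript. *Dnmt3a* was 1384.8 in KO CD4+ animal 4, below the others. *Cd8a* was 3771.4 in KO CD4+ animal 1, 585.6 in WT CD4+ animal 5 and 68732.5 in WT CD8+ animal 5, each above the others of its group. *Cd8b1* was 4515.1 in KO CD4+ animal 1, above the others, and 35471.8 in KO CD8+ animal 4, below them. The cause was not tested.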

How the results depend on the processing

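Calls between KO and WT cells depended on the processing. In CD4+ cells the number of receptors past the threshold went from 1 to 0 under no filter on low values, quantile normalization, the joint fit of 20 libraries and the replicate block, and all genes called to 1285 in the joint fit and 26 with the block, where *Havcr2* turned to 0.31 (0.306). In CD8+ cells it went from 1 to 0 under no filter, edgeR, DESeq2, the joint fit and the block, to 2 under quantile normalization and to 4 without KO animal 3, where *Ctla4* turned to 0.02 (0.016), and all genes called went to 2014 in the joint fit and 89 with the block. KO and WT donors share no animals, and only numbers 2 and 3 occur in both genotypes. For KO against WT cells this block therefore rests on animals 2 and 3 of each genotype. Of DP against CD8+ cells DESeq2 called 7 genes, and *Tigit* turned to 0.06 (0.059) without KO animal 3. DP against CD4+ cells gave 5 receptors and 2116 genes in DESeq2, 6 and 1453 in the joint fit, 6 and 860 with the block, and 93 genes without KO animal 3. WT CD4+ against CD8+ cells gave 2007 genes in DESeq2 and 1595 in the joint fit. KO CD4+ against CD8+ cells gave 5 receptors and 1196 genes in DESeq2, 4 and 884 in the joint fit, 7 and 2305 with the block, and 1 and 122 without KO animal 3. The interaction had 7 genes under no filter, 1 in edgeR, 1 in the joint fit, 173 with the block and 4 without KO animal 3, where *Pdcd1* turned to -0.02 (-0.022), and *Btla* turned to -0.01 (-0.011) under quantile normalization. The block changed no other call of the 9 receptors than those printed here and in the results. With each library left out in turn, KO against WT CD4+ cells had 0 to 1 receptors and 628 (without WT animal 6) to 2963 genes (without KO animal 3), with *Havcr2* from -0.269 to 0.155, *Lag3* from -0.796 to 0.006, *Ctla4* from -0.009 to 0.342 and the median of the receptors from -0.269 to 0.135. *Pdcd1* ran there from -1.031 to -0.47, *Cd160* from -0.454 to -0.051, *Btla* from -0.297 to -0.028 and *Entpd1* from 0.046 to 0.227. KO against WT CD8+ cells had 0 to 4 receptors and 1633 (without WT animal 6) to 4092 genes (without KO animal 3), with *Ctla4* from -0.184 to 0.081 and the median of the receptors from -0.818 to -0.385. *Entpd1* ran from -0.438 to -0.125 and *Btla* from -0.385 to -0.021 in these CD8+ fits. DP against CD8+ cells had *Havcr2* from -0.161 to 0.333, *Tigit* from -0.179 to 0.066, *Ctla4* from -0.093 to 0.215, *Cd244* from -0.119 to 0.393 and *Btla* from -0.149 to 0.274. Without the block, *Pdcd1* ran from 0.136 to 0.629, *Cd160* from 0.133 to 0.914, *Lag3* from 0.046 to 0.605 and *Entpd1* from 0.015 to 0.368 in the same fits. DP against CD4+ cells had 1 to 3 receptors and 84 (without KO CD4+ animal 3) to 279 genes (without KO DP animal 3). KO CD4+ against CD8+ cells had 2 to 4 receptors and 233 (without KO CD4+ animal 3) to 486 genes. The interaction had 0 to 5 genes, with *Pdcd1* from -0.265 to 0.296 and *Btla* from -0.179 to 0.207. Leaving out libraries also leaves fewer samples, and the cause of the other changes was not tested. The receptors kept direction and side of the threshold in 142 of 144 fits of a receptor for WT CD4+ against CD8+ cells, 134 and 130 of 153 for KO against WT CD4+ and CD8+ cells, 140 and 135 of 153 for DP against CD8+ and CD4+ cells, 136 of 153 for KO CD4+ against CD8+ cells and 215 of 225 for the interaction. For KO against WT cells, leaving out the library of KO animal 3 and leaving out that animal are the same fit, counted under both settings. Of the 15 related genes called in CD4+ and 25 in CD8+ cells, 8 and 14 kept the call with each library left out and 7 and 17 under every other alternative but the block. Depth limits *Cd244* in CD4+ cells, where counting error was 42.1% (WT) and 34.4% (KO) of the variance between libraries, and no more than 15.2% for any other receptor and group.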
